A study of Homo sapiens with 6 samples.

Results

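The 8 genes described here encode the proteins that hold, move and cut the sterol regulatory element-binding proteins (SREBPs). They are SREBF1 and SREBF2 (the SREBP precursors), SCAP (their escort), INSIG1 and INSIG2 (retention proteins), MBTPS1 and MBTPS2 (the site proteases) and RNF139 (a ubiquitin ligase of the same membrane). They were chosen by name as a pathway, with earlier results of these data known. They were matched by symbol to 8 of the 63140 genes listed, by a rule that itself uses no measured value. RNA was sequenced from BT-549 cells, a wild-type triple negative breast cancer line, grown for 24 h in adipocyte-conditioned medium (ACM, 3 libraries) or unconditioned medium (UCM, 3 libraries). To make ACM, OP9 mouse cells were differentiated towards adipocytes in a low-serum medium with insulin, oleate and albumin, and the medium was collected from them. The labels give 50% ACM, whereas the supplement describes undiluted ACM for the RNA-seq. The routine growth medium of the line was RPMI-1640 with serum and insulin, and the formula of UCM is not given in the sources used here. Base medium, serum, oleate, insulin and adipocyte secretions therefore cannot be told apart. Each medium had 3 replicates in a plate, and nothing more is said of how separate they were, so p-values measure only the spread between these samples, which may be technical.

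SREBPs are made as precursors that sit in the membrane of the endoplasmic reticulum (ER) and cannot act on genes from there. SCAP binds the precursor and carries it in COPII-coated vesicles to the Golgi, where the site-1 protease (MBTPS1) and then the site-2 protease (MBTPS2) free the part that enters the nucleus. When ER sterols are plentiful, SCAP binds an INSIG protein and the complex stays in the ER, so that sterol and fatty acid synthesis genes receive less active SREBP. INSIG1 is itself a target gene of the SREBPs and is short-lived as a protein. These libraries hold mRNA levels, and precursor cleavage was not measured.

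Expected counts (RSEM's estimate of the reads of a gene, in which reads that fit several genes are shared out) summed to between 18011670 and 21053257 per ACM library and between 17135288 and 20975782 per UCM library. The line is labelled epithelial, yet the summed level of 8 epithelial markers, EPCAM, CDH1 and 6 keratin genes, was 3.66 to 5.07 CPM (counts scaled to a common library total) in ACM and 3.55 to 5.75 in UCM, and 2 of the 8 had enough counts to test. The summed level of 6 mesenchymal markers was 6010 to 6500 CPM in ACM and 5730 to 6040 CPM in UCM. ESR1 and PGR were at 0 in every library, and ERBB2 was at 72.6 to 75.0 CPM in ACM and 61.6 to 73.1 CPM in UCM. Of 7 adipocyte markers, ADIPOQ, LEP and CIDEC were at 0 in every library and the summed level was 13.7 to 16.5 CPM in ACM and 10.7 to 14.1 CPM in UCM. Most of that sum was PPARG, at a mean of 12.9 CPM in ACM and 10.9 CPM in UCM. None of these markers passed the test described next, while 3 of the 11 tested reached 0.05 before adjustment, all higher in ACM, as did 11.9% of all genes tested. DESeq2 called none of the markers.

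In ACM, INSIG1 fell to 0.274 and SREBF2 to 0.657 of their UCM levels, while the other 6 members did not pass the test. INSIG1 mRNA fell by 72.6%, from 124.6 ± 24.99 CPM in UCM to 34.2 ± 5.21 CPM in ACM (mean ± SD, 3 libraries each). SREBF2 mRNA fell by 34.3%, from 229.0 ± 11.03 CPM in UCM to 150.4 ± 14.9 CPM in ACM. SREBF1, INSIG2 and MBTPS1 lay higher in all 3 ACM libraries than in any UCM library, by 18.4%, 47.0% and 12.4% on average, but missed the threshold. The libraries of SCAP, MBTPS2 and RNF139 overlapped between the media. Here CPM were scaled to the library total with TMM factors, and the test was edgeR's quasi-likelihood test with Benjamini-Hochberg adjustment over all 14451 genes with enough counts, called where the adjusted p-value was 0.05 or less. All 8 members were among the genes tested. The members thus gave 2 calls lower and 0 higher, where 2.21% of all genes tested were called lower and 3.35% higher. Before adjustment 3 members reached 0.05 and were higher in ACM, as did 11.9% of all genes, and DESeq2 called 1 member higher, SREBF1. All 3 ACM libraries were above all 3 UCM libraries for 3 members (13.9% of all genes) and below for 2 members (15.1% of all genes). In bulk RNA, fewer cells with a transcript and less of it per cell cannot be told apart.

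**Figure D1:**
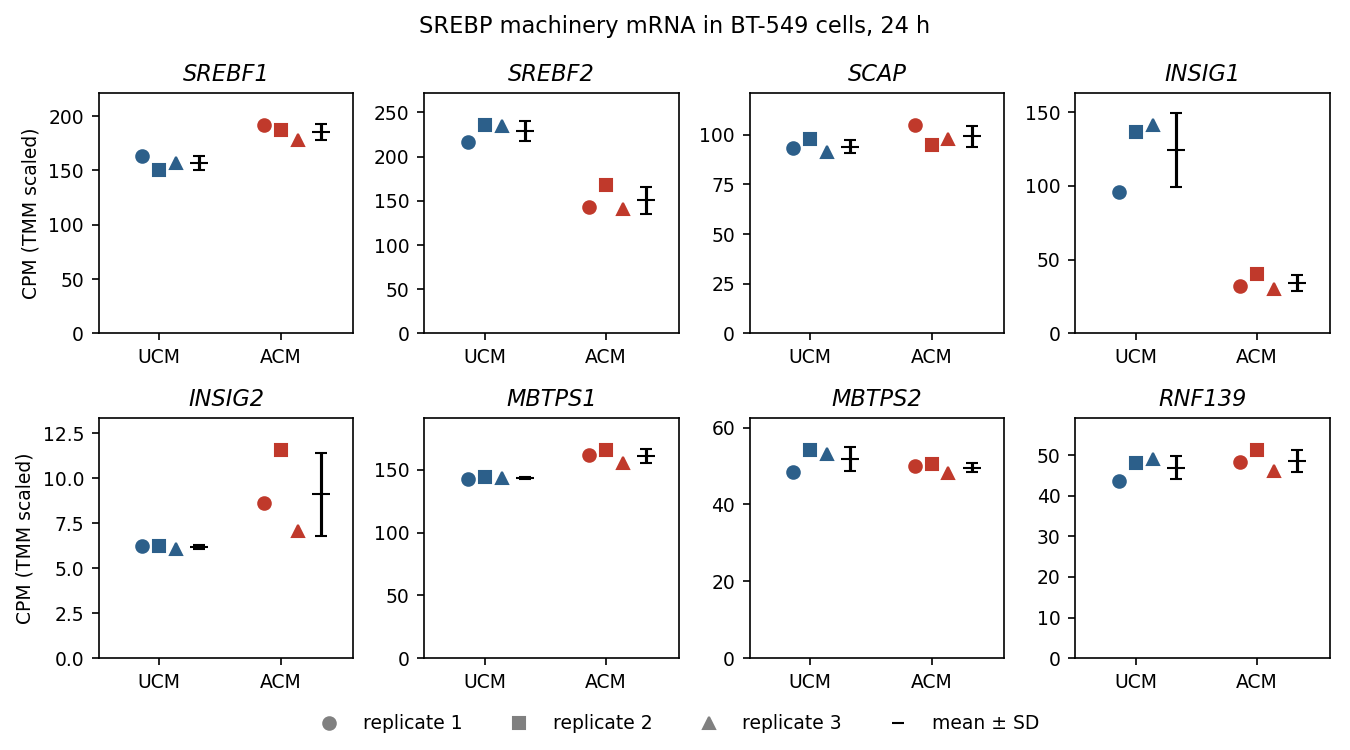
Level of each of the 8 genes (y axis, TMM-scaled CPM, from 0) in the 3 UCM and the 3 ACM libraries (x axis); point shapes mark replicate numbers and the black bar gives the mean ± SD of the 3. INSIG1 and SREBF2 sit lower in all 3 ACM libraries, SREBF1, INSIG2 and MBTPS1 sit higher in all 3, and SCAP, MBTPS2 and RNF139 overlap.

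Promoter sequence is shown for the pair of genes that fell and, beside them, for SREBF1, the other precursor gene, which did not. SREBPs bind sterol regulatory elements (SREs), often next to a CCAAT box, bound by NF-Y, and a GC box, bound by SP1. RefSeq windows from 250 bases before to 50 bases after the start of the gene (GRCh38.p14) were taken for 7 of the 8 members. RNF139 was left out of the search, so nothing is said of its promoter. The 8 windows, INSIG2 having 2, were searched on both strands for the SRE letters TCACNCCAC, the E-box CACGTG, the CCAAT box CCAAT, the GC box GGGCGG and the LXR element, 2 AGGTCA half-sites 4 bases apart. The stretches printed here run from the start of the window to the last base before the first annotated base of the gene, 5′ to 3′ on the strand of the gene, with matches in capitals. They are SREBF2 at chr22:41832855-41833104 (plus strand), INSIG1 at chr7:155297628-155297775 (plus strand) and SREBF1 at chr17:17837003-17837236 (minus strand).
SREBF2: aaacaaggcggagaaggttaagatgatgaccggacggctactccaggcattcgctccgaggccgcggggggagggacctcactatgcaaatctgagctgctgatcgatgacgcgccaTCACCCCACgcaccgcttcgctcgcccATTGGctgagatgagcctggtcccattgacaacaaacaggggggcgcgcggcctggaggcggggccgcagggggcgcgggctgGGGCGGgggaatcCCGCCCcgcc
INSIG1: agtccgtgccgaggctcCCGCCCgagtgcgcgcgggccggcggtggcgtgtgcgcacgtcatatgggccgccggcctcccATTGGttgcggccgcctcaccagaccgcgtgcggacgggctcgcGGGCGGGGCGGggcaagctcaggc
SREBF1: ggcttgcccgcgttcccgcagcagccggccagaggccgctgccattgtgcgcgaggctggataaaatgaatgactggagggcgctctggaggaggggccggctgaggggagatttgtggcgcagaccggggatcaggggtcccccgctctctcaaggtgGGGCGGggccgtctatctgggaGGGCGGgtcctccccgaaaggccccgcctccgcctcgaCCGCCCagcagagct

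Of the 7 members searched, the SRE letters were found in 1, SREBF2, from 133 to 125 bases before its start, and in 1.13% of the 35116 windows of all genes. A CCAAT box on the other strand (ATTGG as printed) followed it from 106 to 102 bases before the start. INSIG1 held a CCAAT box on the other strand from 170 to 166 bases before its RefSeq start, and these were the only CCAAT matches among the members searched, against 34.6% of all windows. E-box letters were found in INSIG1, from 55 to 50 bases before its RefSeq start and past the printed stretch, and in SCAP, from 58 to 53 bases before its start, against 7.26% of all windows. GC boxes were found in SREBF1, SREBF2, SCAP, INSIG1 and INSIG2 and in 45.0% of all windows, and neighbouring GC boxes of INSIG1 and of SREBF2 overlapped by 1 base. The LXR element was found in none of the members searched and in 0.0199% of all windows. The window of SREBF1 lies at its upstream start, and the start of its shorter transcripts is not covered. A match of letters is a description of the window and not a measured binding site. Absent letters say nothing of sites elsewhere or of sites in the window with other letters.

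**Figure D2:**
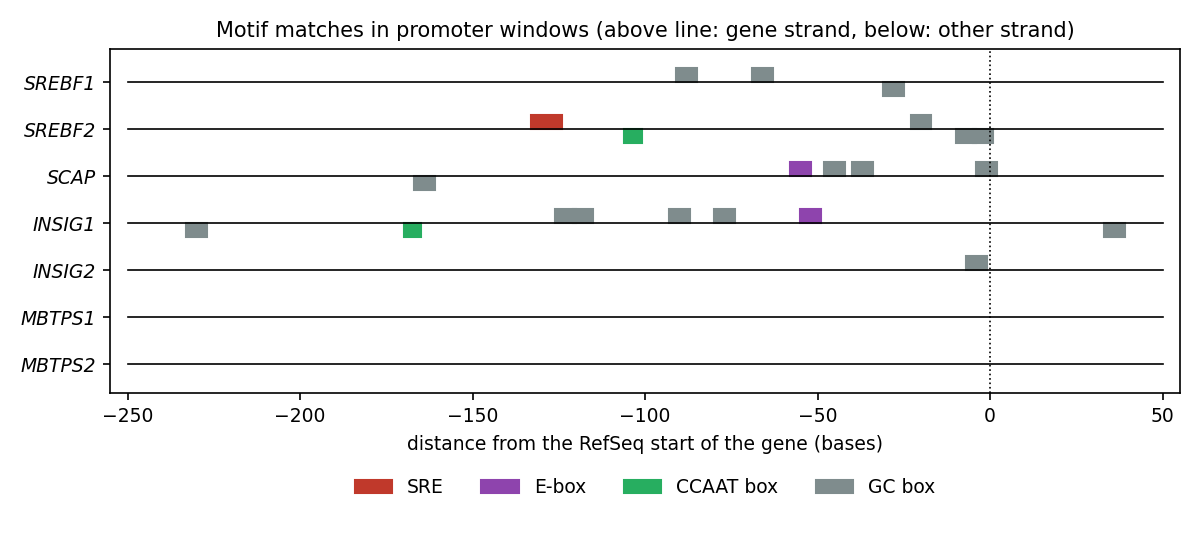
Position of each motif match in the RefSeq promoter window of 7 members (x axis, distance in bases from the start of the gene, dotted at 0; the first window for INSIG2), above the line on the strand of the gene and below it on the other strand. SREBF2 is the member with an SRE match, SREBF2 and INSIG1 have a CCAAT match, INSIG1 and SCAP have an E-box match, and MBTPS1 and MBTPS2 have none of the 4 motifs drawn.

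Both precursor genes carry a microRNA of the miR-33 family, known for lowering ABCA1 and fatty acid oxidation genes. MIR33A (GRCh38, 22:41900944-41901012) lies in intron 16 of SREBF2 and MIR33B (17:17813836-17813931) in intron 16 of SREBF1, by the canonical transcripts of GENCODE 44, which have 19 exons each. The mature forms from RefSeq are shown with the seed, bases 2 to 8, in capitals, since the pair has the same seed.
hsa-miR-33a-5p: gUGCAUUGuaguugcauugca
hsa-miR-33b-5p: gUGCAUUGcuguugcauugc
Both microRNA genes had a count of 0 in all 6 libraries, and polyA-enriched libraries are not made to capture mature microRNAs, so their levels were not measured here.

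SREBF2 encodes SREBP-2, the precursor best known for driving cholesterol synthesis genes (22:41833105-41907306, plus strand). Its level was 143, 168 and 141 CPM in the ACM libraries and 216, 236 and 235 CPM in the UCM libraries. The highest ACM library lay well under the lowest UCM library. The log2 fold change of ACM against UCM was -0.61 with a standard error of 0.08 (95% confidence interval -0.79 to -0.43, edgeR adjusted p = 0.00377), place 62 of all genes by p-value. Per transcript length the fall was the same in size, from 67.3, 69.2 and 69.7 TPM (counts divided by transcript length, then scaled to a common sum) in UCM to 43.7, 47.4 and 41.9 TPM in ACM. It passed the test in all 15 alternatives tried, with log2 fold changes between -0.69 and -0.56. SREBF2-AS1, an antisense RNA across its start, had 0 to 3 counts in ACM and 1 to 5 in UCM. The strand setting of the counting is not given in the sources used here.

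SREBF1 encodes SREBP-1, whose forms lean towards fatty acid synthesis genes (17:17810399-17837002, minus strand). Gene totals do not separate SREBP-1a from SREBP-1c, and the deposited data list 24 transcripts for the gene. Its level was 192, 187 and 178 CPM in ACM and 163, 151 and 157 CPM in UCM. All ACM libraries were above all UCM libraries, by a narrow gap. The log2 fold change was 0.24 with a standard error of 0.07 (interval 0.10 to 0.39, edgeR adjusted p = 0.0583), which missed the threshold and passed it in 6 of the 15 alternatives. On the deposited TPM scale the libraries overlapped, with 92.5, 90.2 and 87.5 TPM in ACM and 93.5, 68.0 and 79.0 TPM in UCM. The high UCM value is replicate 1, where the effective length of SREBF1 was 2529 bases against 3128 and 2845 bases in the other UCM libraries. RAI1, which overlaps the end of SREBF1 on the other strand, had a log2 fold change of -0.04 ± 0.06 (SE; edgeR adjusted p = 0.784).

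SCAP, the escort that also senses sterol (3:47413681-47477126, minus strand), was at 105, 94.7 and 97.9 CPM in ACM and 93.3, 97.7 and 91.3 CPM in UCM. The groups overlapped. Its log2 fold change was 0.08 with an interval of -0.08 to 0.23 (edgeR adjusted p = 0.558), which leaves room for a change of at most 0.23 in size at that confidence.

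INSIG1 (7:155297776-155310235, plus strand) holds SCAP in the ER when sterols are plentiful. Its level was 32.3, 40.0 and 30.2 CPM in ACM and 95.9, 136 and 142 CPM in UCM. The lowest UCM library, replicate 1, was still far above the highest ACM library. The log2 fold change was -1.87 with a standard error of 0.17 (interval -2.27 to -1.46, edgeR adjusted p = 0.00302), place 44 of all genes by p-value. In counts, 555 to 711 reads per ACM library stood against 2023 to 2535 per UCM library. INSIG1 passed the test in all 15 alternatives, with log2 fold changes from -2.02 to -1.75. UCM replicate 1 was also the lowest UCM library for HMGCS1, MSMO1 and MVK, enzymes of sterol synthesis described with the target genes.

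INSIG2 (2:118088452-118110997, plus strand) has the same retention role, and in many tissues its gene is less responsive to sterols than INSIG1. It was the member with the fewest reads, 130 to 206 per ACM library and 104 to 132 per UCM library. Its level was 8.65, 11.6 and 7.07 CPM in ACM and 6.25, 6.24 and 6.06 CPM in UCM. All ACM libraries were above all UCM libraries, but ACM replicate 3 only by a little. The log2 fold change was 0.56 with a standard error of 0.19 (interval 0.13 to 0.98, edgeR adjusted p = 0.116) and dropped to 0.35 without ACM replicate 2. It passed the threshold in 1 of 15 alternatives, the weaker filter on low counts.

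Neither protease passed the test. MBTPS1, the site-1 protease (16:84053761-84116942, minus strand), was at 162, 166 and 155 CPM in ACM and 143, 144 and 143 CPM in UCM. The UCM libraries were nearly equal and all lay under the ACM libraries. Its log2 fold change was 0.17 with a standard error of 0.06 (interval 0.03 to 0.31, edgeR adjusted p = 0.136) and passed in none of the 15 alternatives, where the adjusted p ranged from 0.0991 to 0.411. MBTPS2, the site-2 protease (X:21839617-21885423, plus strand), was at 50.0, 50.4 and 48.2 CPM in ACM and 48.4, 54.3 and 53.1 CPM in UCM. UCM replicate 1 fell among the ACM libraries. The log2 fold change of MBTPS2 was -0.07 with an interval of -0.24 to 0.10 (edgeR adjusted p = 0.659). YY2, a gene inside the span of MBTPS2 on the same strand, had 55 to 92 reads per library and a log2 fold change of -0.25 ± 0.22 (SE; edgeR adjusted p = 0.534).

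RNF139 encodes an ER ubiquitin ligase, also named TRC8, that has been tied to the sterol-driven breakdown of HMG-CoA reductase and to SREBP precursor levels (8:124474880-124488618, plus strand). It was at 48.2, 51.4 and 46.0 CPM in ACM and 43.7, 48.1 and 49.0 CPM in UCM, and the groups overlapped. The log2 fold change was 0.05 with an interval of -0.13 to 0.23 (edgeR adjusted p = 0.779), and its sign turned on scales that divide by effective length, to between -0.07 and -0.04. TATDN1, which overlaps its end on the other strand, had a log2 fold change of -0.16 ± 0.08 (SE; edgeR adjusted p = 0.247).

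Levels can be ordered between genes only per transcript length, and TPM gives that order. In UCM, INSIG1 averaged 88.0 ± 17.6 TPM, SREBF1 80.2 ± 12.8, SREBF2 68.7 ± 1.30, MBTPS1 55.8 ± 3.12, SCAP 40.6 ± 0.64, RNF139 24.7 ± 1.68, MBTPS2 17.9 ± 0.74 and INSIG2 5.81 ± 1.68 TPM (SD, n = 3). The libraries of INSIG1 overlapped those of SREBF1, and those of SREBF1 overlapped those of SREBF2, so the first 3 places are not ordered beyond their spread. In ACM the order was SREBF1 at 90.1 ± 2.53 TPM, MBTPS1 at 61.1 ± 2.73, SREBF2 at 44.3 ± 2.81, SCAP at 41.9 ± 1.84, INSIG1 at 23.7 ± 3.29, RNF139 at 23.5 ± 0.82, MBTPS2 at 17.7 ± 0.44 and INSIG2 at 8.53 ± 2.82 TPM. Here SREBF2 overlapped SCAP, and INSIG1 overlapped RNF139. On counts divided by the mean effective length of each gene, SREBF1 lay above SREBF2 in UCM with no overlap, at 74.2 to 82.1 against 65.5 to 69.9, while INSIG1 overlapped both. INSIG1 moved from among the first 3 places to beside RNF139, and SREBF2 to beside SCAP, on both scales.

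Since a gene called and another not called are not shown to differ, ratios between members were compared within each library, on CPM. INSIG1 over SCAP, retention protein to escort, was 0.307, 0.423 and 0.308 in ACM and 1.03, 1.40 and 1.55 in UCM, a log2 difference of -1.93. INSIG1 over INSIG2 was 3.73, 3.45 and 4.27 in ACM and 15.3, 21.9 and 23.3 in UCM, a log2 difference of -2.38. SREBF1 over SREBF2 was 1.35, 1.12 and 1.26 in ACM and 0.754, 0.638 and 0.668 in UCM, a log2 difference of 0.85. In each of these pairs the ratios of the 2 media did not overlap. INSIG1 over SREBF2, the ratio of the 2 genes that fell, was 0.226, 0.239 and 0.214 in ACM and 0.443, 0.578 and 0.603 in UCM, a log2 difference of -1.25, with all 3 ACM libraries under all 3 UCM libraries. Each of the 4 comparisons reached p = 0.1 in a two-sided exact permutation test, which is the smallest p that 3 libraries against 3 can give, and 0.1 after adjustment over the 4. Each pair holds INSIG1 or SREBF2, whose own levels did not overlap between the media, so these ratios are not separate support for those falls. How often ratios of other gene pairs lie apart was not measured. On the per-length scale drawn in the plot of ratios, which divides each count by the mean effective length of the gene, INSIG1 went from 1.68 to 2.54 times SCAP in UCM to 0.503 to 0.692 times SCAP in ACM. On that scale SREBF1 went from 1.06 to 1.25 times SREBF2 in UCM to 1.86 to 2.24 times in ACM.

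**Figure D3:**
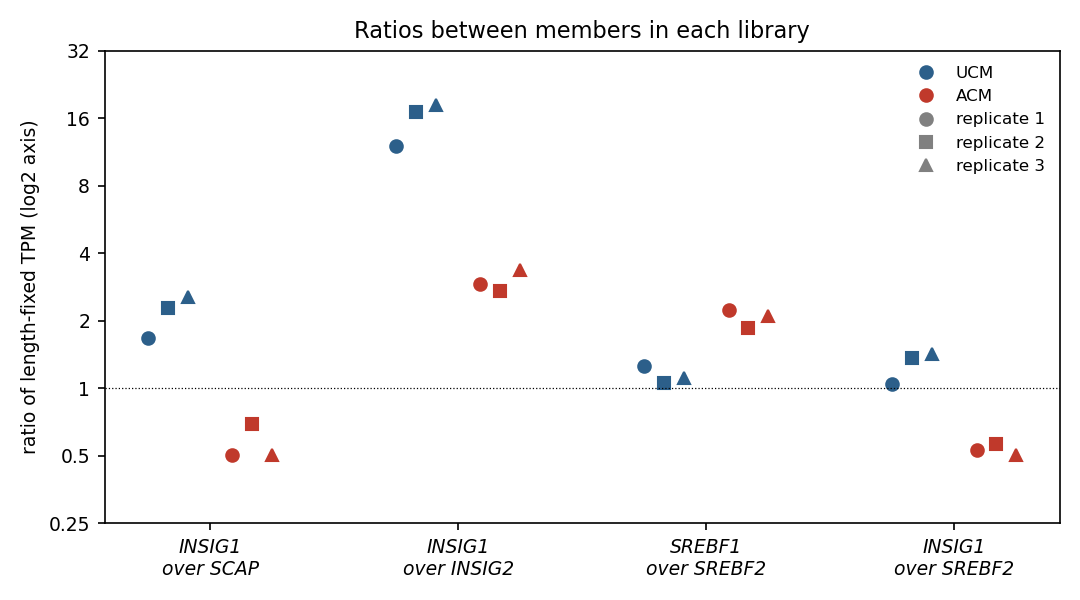
Ratio of the levels of 2 members in each library (y axis, log2 scale, count over mean effective length, library-scaled) for 4 pairs (x axis), with UCM in blue, ACM in red and point shapes for replicate numbers; the dotted line is equality. The 3 ACM and 3 UCM libraries are apart in each pair, INSIG1 over SCAP and INSIG1 over SREBF2 crossing equality.

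RSEM's effective length is an abundance-weighted mean over the transcripts of a gene, after allowance for the fragment lengths of the library, so it can shift with the estimated mix of transcripts or with the fragments. For 2 of the 8 members the lengths did not overlap between the media, where 9.19% of all genes tested did not. MBTPS2 was at 3963, 3889 and 4058 bases in ACM and 4118, 4166 and 4170 bases in UCM. RNF139 was at 2920, 2919 and 2923 bases in ACM and 2621, 2919 and 2648 bases in UCM, the UCM value of replicate 2 lying less than 1 base under the lowest ACM value. Both gave p = 0.1 in the two-sided exact permutation test, the smallest possible, and 0.4 after adjustment over the 8 members. INSIG2 varied most, from 1214 to 2184 bases, a spread larger than that of 91.6% of all genes tested. Its length was lowest in replicate 1 and highest in replicate 3 of both media, and among UCM libraries its TPM ran from 3.98 to 7.28 while its CPM stayed between 6.06 and 6.25. SREBF1 varied 1.24-fold, with both ends of the range in UCM. For INSIG1 and SREBF2 the mean lengths differed by 1.01-fold or less between the media, and their falls were present on every scale.

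**Figure D4:**
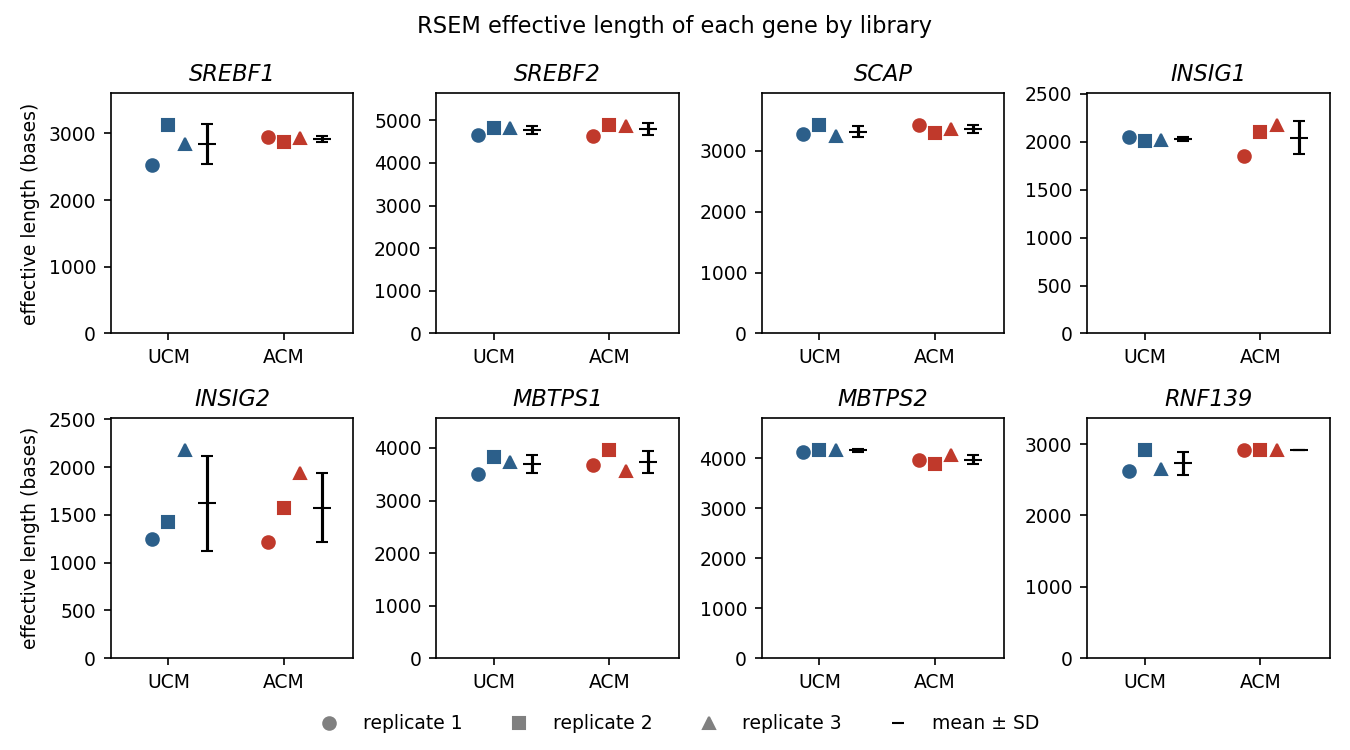
RSEM effective length of each member (y axis, bases, from 0) in the 3 UCM and 3 ACM libraries (x axis), with point shapes for replicate numbers and the mean ± SD in black. INSIG2 runs from 1214 to 2184 bases, with replicate 1 lowest and replicate 3 highest in both media, and SREBF1 has its low and high values in UCM.

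Around the 8 members stand the factors that support or degrade them. Of 20 escort and degradation factors, all tested, 3 were called higher and 2 lower, against 3.35% and 2.21% of all genes tested. Their median log2 fold change was -0.03 against -0.01 over all genes. RNF145, an ER ubiquitin ligase reported to act on SCAP and to be induced by LXR, rose from 132, 119 and 122 CPM in UCM to 332, 437 and 360 CPM in ACM. Its log2 fold change of 1.6 ± 0.10 (SE; edgeR adjusted p = 0.000306) had the smallest p-value of all genes. SYVN1, the ligase of ER-associated degradation also named HRD1, rose from 64.4 ± 3.51 to 87.8 ± 6.71 CPM, a log2 fold change of 0.45 (edgeR adjusted p = 0.0132), but missed the threshold without ACM replicate 2 (0.0603) or UCM replicate 3 (0.0601). LPIN1, a phosphatidate phosphatase that also restrains nuclear SREBP, fell from 26.7 ± 2.59 to 16.4 ± 1.66 CPM, a log2 fold change of -0.70 (edgeR adjusted p = 0.00893). The other calls, named after their values were seen, were SPRING1, a cofactor of the site-1 protease, at -0.44 (edgeR adjusted p = 0.029), and TMUB1, a membrane adaptor of ER-associated degradation, at 0.27 (edgeR adjusted p = 0.0428). SPRING1 passed in 8 of the 15 alternatives and was lost without ACM replicate 1 or 2 or UCM replicate 2 or 3 (adjusted p from 0.0649 to 0.141). It was also lost, with a larger fold change, with effective lengths as offsets (-0.69, adjusted p = 0.0828) and on log2(TPM + 0.1) and log2(TPM + 1) (-0.73 and -0.69). TMUB1 passed in 7 and was lost without any ACM replicate, without UCM replicate 2 or 3, with the offsets and on both TPM scales (adjusted p from 0.0764 to 0.18). Across the 15 alternatives the list gave 1 to 3 calls in each direction.

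None of the 13 COPII coat genes was called by edgeR with the settings given above or by DESeq2. Their median was 0.10, and 4 were higher at 0.05 before adjustment, as were 11.9% of all genes tested. Among the other alternatives edgeR called up to 3 of them higher, 3 with a filter of at least 1 count in total and 1 without UCM replicate 1. The most abundant were SEC13, at 0.07 ± 0.10 (SE; edgeR adjusted p = 0.716), and SEC16A, at 0.24 ± 0.11 (SE; edgeR adjusted p = 0.246). SEC16A ran from 0.13 without ACM replicate 1 to 0.35 without UCM replicate 1, and passed with the filter of at least 1 count in total (edgeR adjusted p = 0.0456). Of 8 other substrates of the site proteases, 7 were tested and none was called by edgeR with the settings given above. Their median was 0.17, and 3 were higher at 0.05 before adjustment (11.9% of all genes tested). DESeq2 called 1 of them higher, as did edgeR with at least 1 count in total, with at least 10 counts in every library and with protein-coding genes only. The most abundant of these, the ER-anchored transcription factors CREB3 and CREB3L1, were at 0.17 ± 0.08 (edgeR adjusted p = 0.255) and -0.12 ± 0.10 (SE; edgeR adjusted p = 0.493).

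The target genes of the SREBPs give the setting of the falls in SREBF2 and INSIG1. Like the other lists, theirs were typed by hand with earlier results of these data known. Of 20 sterol synthesis and transport genes known as SREBP-2 targets, 18 were called lower and none higher by edgeR, against 2.21% and 3.35% of all genes tested. DESeq2 called 19 lower and none higher, none was higher at 0.05 before adjustment, and the median was -1.08. The exceptions were PMVK, at 0.15 (edgeR adjusted p = 0.408), and TM7SF2, at -0.79 (edgeR adjusted p = 0.0749). MSMO1, a C4 demethylation enzyme, fell from 81.8 ± 16.5 to 17.4 ± 2.04 CPM, HMGCS1, the HMG-CoA synthase, from 192 ± 46.1 to 44.5 ± 4.92 CPM, and MVK, mevalonate kinase, from 33.6 ± 7.04 to 10.2 ± 0.61 CPM. INSIG1, at -1.87, lay between MVK at -1.71 and HMGCS1 at -2.11. Of 12 fatty acid genes known as SREBP-1 targets, 11 were tested, with a median of -0.38. Of these, 5 were called lower (3 with effective lengths as offsets or on TPM) and 1 higher, against the same 2.21% and 3.35% of all genes. SCD, the stearoyl-CoA desaturase, was at -1.21 ± 0.12 (edgeR adjusted p = 0.00232), and FADS2, the delta-6 desaturase, at -0.84 ± 0.13 (SE; edgeR adjusted p = 0.0119). ACSS2, the acetyl-CoA synthetase, was at -1.09 (edgeR adjusted p = 0.00377) but at -0.48 (edgeR adjusted p = 0.398) with effective lengths as offsets. Among those not called, and named after their values were seen, FASN was at -0.16 (edgeR adjusted p = 0.161) and ACACA at 0.17 (edgeR adjusted p = 0.392). The gene called higher, named after its value was seen, was ELOVL6, a fatty acid elongase, at 0.73 (edgeR adjusted p = 0.0126), or 0.0668 without UCM replicate 2. With effective lengths as offsets ELOVL6 was at 1.23, and on the TPM scales at 1.16 and 1.10. Of 8 LXR targets and receptors, 7 were tested, with a median of 0.04, and 1 was called, higher, against 3.35% of all genes. It was ABCA1, the cholesterol exporter, at 3.47 ± 0.34 (SE; edgeR adjusted p = 0.00401), with 26.8, 42.4 and 25.8 CPM in ACM and 4.26, 1.99 and 2.16 CPM in UCM. On log2(TPM + 1), which shrinks the change of low genes, ABCA1 was at 1.92. NR1H2, which encodes LXR-beta, was at 0.04 (edgeR adjusted p = 0.849) and LPCAT3, a phospholipid acyltransferase, at 0.27 (edgeR adjusted p = 0.161). SREBF1, itself known as an LXR target, was at 0.24 as given above. RNF145, reported to be induced by LXR, was at 1.6. Neither SREBF1 nor RNF145 was on the LXR list, so its count and median leave them out. NR1H2 and NR1H3 on that list are receptors.

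**Figure D5:**
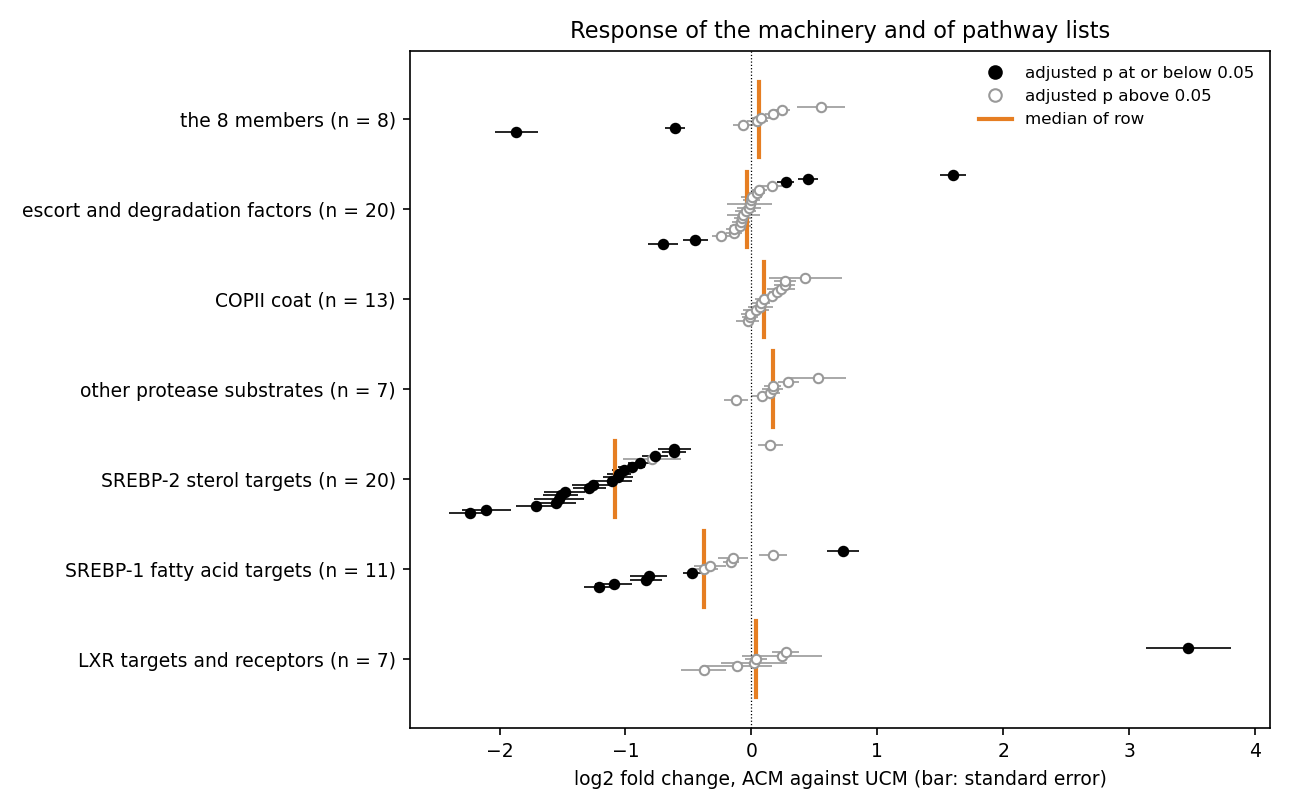
Log2 fold change of ACM against UCM (x axis, positive is higher in ACM, bars are standard errors) for the 8 members and for each tested gene of the 6 pathway lists (rows; within a row, genes are stacked by value), filled where edgeR called the gene, with the row median in orange. INSIG1 and SREBF2 are the 2 filled members, at -1.87 and -0.61, and the SREBP-2 row has its median at -1.08.

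The genes whose profiles over the 6 libraries lay nearest to those of INSIG1 and SREBF2 were found among 13350 genes with a mean of at least 1 CPM, by the root mean square difference of mean-centred log2 CPM. For INSIG1 they were HMGCS1 (0.126), MVK (0.160) and MSMO1 (0.186). For SREBF2 they were ERMAP (0.0684), ING2 (0.0727) and SVBP (0.0759), none of which is on the lists above. ERMAP had a log2 fold change of -0.61 (edgeR adjusted p = 0.0327), ING2 of -0.58 (edgeR adjusted p = 0.0314) and SVBP of -0.61 (edgeR adjusted p = 0.0883). The measure rests on 6 libraries that fall into the same 2 groups, so any gene with a like change in ACM comes near.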

How the data were processed

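RNA was extracted from adherent BT-549 cells, and the polyA-enriched libraries were read in pairs. The authors used Trim Galore for trimming, STAR for alignment (GRCh38) and RSEM for quantification, whose versions, annotation and strand setting are not given in the sources used here. The deposited files hold for each gene the expected count, the TPM and the effective length. Expected counts were deposited unscaled, with shared reads split between genes. Among the members, such splitting gave fractional counts for SREBF1 in 6 libraries and for SREBF2 and MBTPS2 in 4 each, so these are uncertain to that extent. The deposited TPM divides by effective length and scales to the library sum. A further deposited table of the authors' own ACM against UCM fold changes and p-values was not used. Expected counts were rounded and tested with edgeR 4.0.16 in R 4.3.3 (filterByExpr, TMM factors of 0.987 to 1.007, robust quasi-likelihood fit with medium as the only term, Benjamini-Hochberg adjustment over 14451 genes). The biological coefficient of variation was 0.115. Standard errors from edgeR were derived from the test, as the size of the log2 fold change over the square root of its F statistic. The 95% intervals use the total degrees of freedom, which add those borrowed across genes (10.5, or 7.4 for INSIG1). These were solved back from the p-value and standard error. In data simulated for ACM against UCM, 154 of 198 genes doubled or halved (77.8%) were recovered among 14252. Symbols and positions come from GENCODE 44, matched for 61547 of 63140 identifiers. Alternatives were DESeq2 1.42.0, RLE factors, effective lengths as offsets, other count filters, protein-coding genes, limma 3.58.1 on log2(TPM + 0.1) and log2(TPM + 1), the replicate number as a block and each library left out. The named list genes are up to 3 called genes of largest change per list, or the 2 most abundant where fewer than 2 were called. The members and lists were chosen with earlier results of these data known. Lists were typed by hand, and some genes of the sterol target list are not reported here.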

Additional observations from a re-analysis of the deposited data

How the results depend on the processing

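The calls of INSIG1 and SREBF2 held in all 15 alternatives. SREBF1 passed the threshold with DESeq2 (log2 fold change 0.252), a filter of at least 1 count in total (0.246), at least 10 counts in every library (0.257), protein-coding genes only (0.248) and the replicate block (0.243), and left-out libraries gave 0.214 to 0.281, the highest and the one that passed being without UCM replicate 1. INSIG2 passed with at least 1 count in total (0.558), and left-out libraries gave 0.346 to 0.705. With effective lengths as offsets MBTPS2 turned to 0.006 and RNF139 to -0.043, and RNF139 was at -0.069 and -0.066 on log2(TPM + 0.1) and log2(TPM + 1). Among list genes, left-out libraries gave -0.026 (without UCM replicate 1) to 0.144 for SEC13 and -0.032 (without UCM replicate 1) to 0.098 for NR1H2, and NR1H2 was at -0.007 on both TPM scales. The number of genes called moved more than the members did. In place of 484 higher and 320 lower, DESeq2 called 762 and 444, offsets 272 and 134, and at least 1 count in total 1045 and 679. On log2(TPM + 0.1) the calls were 234 and 138, and on log2(TPM + 1) 230 and 132. Left-out libraries gave 125 (without UCM replicate 2) to 738 (without UCM replicate 1) higher. They gave 62 (without UCM replicate 3) to 572 (without UCM replicate 1) lower. The replicate block called 909 and 703, with 3 COPII coat genes, SEC16A among them (adjusted p = 0.0258), and 1 other protease substrate. Deviations of same-numbered libraries correlated at 0.318, 0.035 and 0.177, and those of differently numbered libraries at -0.314 to 0.196. These values do not settle whether the numbers pair the samples, and the main test did not use the numbers. With the block SREBF1 passed (edgeR adjusted p = 0.0279), and no other call of a member changed.

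Depth limits INSIG2 most, with 104 to 206 reads per library. Libraries left out reduce the residual degrees of freedom. For the other shifts the cause was not tested.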
